A study of Mus musculus with 2 samples.

Results

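Immediate early transcription factors are made within minutes of a stimulus from genes that need no new protein synthesis to be switched on, and they then set the later transcriptional response. Growth factor and calcium signals reach these genes through MAP kinases, which act on serum response factor and its ETS partners, and through the CREB family. In the cortex they are known as markers of neuronal activity and of cell stress. The genes described here are Egr1, Egr2, Fos, Jun, Junb, Jund and Atf3. EGR proteins bind DNA through zinc fingers, whereas FOS, JUN and ATF proteins bind as pairs through a basic leucine zipper, and FOS-JUN pairs form the AP-1 factor. They were chosen by name, as every probe set whose platform annotation gives 1 of these 7 symbols alone. This gave 12 of the 12488 probe sets on the array, and each of the 7 genes had at least 1.

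Cerebral cortex was taken at embryonic day E14.5 from mice of the NMRI strain, either wild type or Pax6-/-, and its total RNA was hybridised as biotin-labelled cRNA to Affymetrix arrays. The study's purpose was to find genes downstream of Pax6, a transcription factor of cortical progenitors. The series holds 1 wild type and 1 Pax6-/- array. Its design text mentions 3 embryos per genotype without saying whether their RNA was pooled, and the labels do not name the Pax6 allele. No difference below therefore has a replicate check, no test between genotypes was possible, and no p-value is given.

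Values are MAS5 signals, a brightness in arbitrary units, and the array medians were 237.3 (wild type) and 283.7 (mutant). The means after leaving out 2% of probe sets at each end were 500.2 and 500.2. The 25th percentiles were 71.3 and 90.2, so the arrays had like means while the dim end was higher in the mutant. The single Pax6 probe set read 1169 in wild type against 446.7 in the mutant (log2 ratio −1.29), and since its position relative to the mutation is unknown, it may be no check of the labels. Of the 9 cortical markers listed, 5 had a probe set (Eomes, Neurod2, Neurod6, Neurog2 and Tbr1), and all 5 were above the signal filter on the mean of both arrays and lower in the mutant, with a median log2 ratio of −1.10. In whole tissue, fewer cells of a type and less RNA per cell cannot be told apart.

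Promoter sequences are shown first, since the members are known for the regulatory elements in front of their genes. Windows of 250 bases before the transcription start were taken from RefSeq's table (GRCm38.p6), which held 6 of the 7 genes, all but Egr1, in 10 windows. The motifs searched on both strands were the CArG box bound by serum response factor, the cyclic AMP response element TGACGTCA, its core TGACG (which lies within the full element), the AP-1 site TGANTCA, the EGR site GCGNGGGCG and the TATA box TATAAA. The stretches below are those that held a match near the start, written 5′ to 3′ on the gene's strand, with matches in capitals. The Egr2 stretch runs from 80 to 51 bases before the start of 1 of its 5 RefSeq windows (chr10:67537790-67537819, plus strand). The others run over the last 120 bases before the start, for Fos at chr12:85473770-85473889 (plus strand), for Junb at chr8:84978749-84978868 (minus strand) and for Atf3 at chr1:191183334-191183453 (minus strand).
Egr2: cctcagtCCATATATGGgcagcgaCGTCAc
Fos: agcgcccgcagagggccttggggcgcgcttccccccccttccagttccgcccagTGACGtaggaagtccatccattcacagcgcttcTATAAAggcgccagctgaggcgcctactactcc
Junb: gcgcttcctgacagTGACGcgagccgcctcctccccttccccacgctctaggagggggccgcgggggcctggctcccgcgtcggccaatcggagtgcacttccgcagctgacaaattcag
Atf3: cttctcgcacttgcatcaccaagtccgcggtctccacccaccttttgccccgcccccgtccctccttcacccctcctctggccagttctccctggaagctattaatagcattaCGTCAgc

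The Egr2 stretch holds the CArG box CCATATATGG, with the core of the cyclic AMP response element on the opposite strand beside it. Fos and Junb hold that core on the gene's strand and Atf3 on the opposite one, and only the Fos stretch of these 4 holds the TATA box. Over all 32851 promoter windows of the same length, some of which overlap, 1.47% hold a CArG box, 1.55% the full cyclic AMP response element, 17.8% its core, 6.75% an AP-1 site, 4.7% an EGR site and 12.4% a TATA box. No match to the 6 motifs lay in the windows of Jun or Jund. A match is a description of letters, and no binding was measured.

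Across the 7 genes the arrays did not show a shared direction. Egr1 and Egr2 had higher signals in the mutant cortex, Jun was nearly equal, Jund was slightly lower, and Fos, Junb and Atf3 each had probe sets that disagreed in sign. Of the 12 probe sets, 8 were higher and 4 lower in the mutant, and 3 in each direction were past 2-fold. Among all 10833 named probe sets, 53.6% were higher in the mutant, 7.01% were past 2-fold upward and 5.53% past 2-fold downward. Ratios are log2 values of mutant over wild type after a pseudocount of 81.5, centred on the median, so they understate differences at dim signals.

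**Figure D1:**
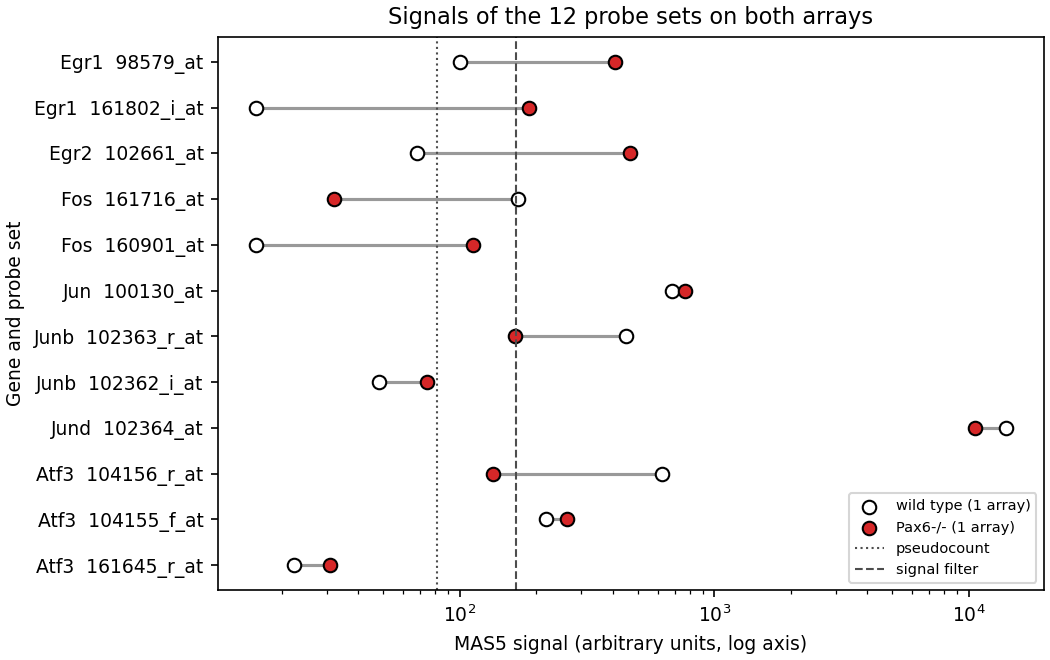
MAS5 signal (log axis) of each of the 12 probe sets, with an open point for the wild type array and a red point for the Pax6-/- array. Dotted and dashed lines mark the pseudocount of 81.5 and the filter signal of 165.8; Egr1 and Egr2 have the red point to the right on all 3 of their probe sets, while the 2 Fos probe sets point in opposite directions.

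Egr1, also known as Zif268 or Krox-24, is an activity-induced zinc finger factor. Its probe set 98579_at gave 100.05 in wild type against 407.4 in the mutant. Its probe set 161802_i_at had 15.8 and 187.3. Both probe sets were thus brighter on the mutant array, and on both the wild type signal was below the filter signal of 165.8. The log2 ratios were 1.38 and 1.42, or 2.61-fold and 2.68-fold higher on the pseudocount scale, and the ratios of the signals themselves were 4.07 and 11.8. The technical spread, an SD (log2) taken from genes measured by several probe sets, was 0.72 at the first probe set's brightness and 0.69 below the filter. Differences from embryo to embryo are not part of it.

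The agreement of the Egr1 probe sets is a description and supports nothing further, since probe set 161802_i_at was below the filter and 98579_at passed it only through the mutant array. Of 2073 genes with at least 2 probe sets, 12 (0.579%) had the 2 brightest probe sets both at least 2-fold higher, Egr1 among them, and 9 (0.434%) had both at least 2-fold lower. The 2 brightest had the same sign in 53.4% of these genes. With 7.01% of all named probe sets past 2-fold upward, a share of such pairs close to this 0.579% would also arise between unrelated probe sets. Probe sets of 1 gene share the RNA of the same arrays, so their agreement is no replicate of the genotype.

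Egr2 (Krox-20), the relative of Egr1 known for hindbrain segmentation and myelination, had 1 probe set, 102661_at. It read 68.3 in wild type against 464.9 in the mutant. This was the largest log2 ratio of the 12, at 1.82 (3.53-fold higher) against a technical spread of 0.72. It was the 33rd highest of 6615 named probe sets above the signal filter. The probe set passed that filter only through the mutant array, so it had to differ to be ranked there. Without the filter it was the 66th highest of 10833. The wild type signal was lower than 76.0% of the wild type array, and the mutant signal was above 64.6% of the mutant array. With a single probe set, agreement within the gene could not be examined.

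Nab1 and Nab2 encode corepressors that bind EGR proteins, and Nab2 is itself an EGR target. The log2 ratio was 0.58 for Nab2, with signals of 149.4 and 275.5, and −0.26 for Nab1, with 573.6 and 481.6. Neither reached 2-fold. Egr3 and Egr4 had no probe set named by a single symbol.

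Fos, the AP-1 subunit most used as an activity marker, had 2 probe sets that contradicted each other. Probe set 161716_at gave 169.0 in wild type against 32.2 in the mutant, a log2 ratio of −1.19. Probe set 160901_at gave 15.8 in wild type against 112.3 in the mutant, a log2 ratio of 0.95. The first is 2.27-fold lower and the second 1.93-fold higher in the mutant, and both were below the signal filter. They differed by 2.13 on the log2 scale, a gap reached by 51 of 2073 genes (2.46%) with several probe sets. The arrays therefore give no single direction for Fos.

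The other FOS genes were nearly equal or dim, and were chosen for mention after their values were seen. Fosb had signals of 746.1 and 772.8, a log2 ratio of 0.00. Fosl2 had 80.9 and 86.1, and Fosl1 had 23.3 and 60.4, both below the filter.

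Of the JUN genes, Jun itself, the most potent activator among them, was measured by probe set 100130_at at 680.2 in wild type and 765.7 in the mutant. The log2 ratio of 0.11 is smaller than the technical spread of 0.54 at that brightness, and the ratio stayed between 0.06 and 0.17 over all settings. Jund, which is expressed more constitutively than its relatives, was measured by probe set 102364_at at 14042 in wild type and 10589 in the mutant. It exceeded 99.3% of the probe sets on each array, where the technical spread was 0.38. Its log2 ratio was −0.45. Of the 2108 named probe sets in the brightest of 3 signal bins, 34.7% were higher in the mutant, against 49.4% of all named probe sets above the filter. With quantile scaling the Jund ratio was 0.00, and with loess scaling, which follows the brightness trend, it was −0.11.

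Junb, an AP-1 subunit that often opposes Jun, had 2 probe sets. Probe set 102363_r_at gave 449.0 in wild type against 164.9 in the mutant, a log2 ratio of −1.15 (2.22-fold lower). Probe set 102362_i_at gave 48.2 and 74.6, a log2 ratio of 0.22. Only the first was above the filter, and the difference between them, 1.37, was reached by 12.9% of genes with several probe sets. The lower Junb signal therefore rests on 1 probe set.

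Atf3, a stress-induced factor of the ATF family that pairs with JUN proteins, had 3 probe sets. Probe set 104156_r_at gave 623.4 in wild type against 134.8 in the mutant, a log2 ratio of −1.75 (3.36-fold lower), the 45th lowest of 6615. This probe set passed the filter only through the wild type array, and without the filter it was the 48th lowest of 10833. Probe set 104155_f_at gave 217.8 and 263.3, a log2 ratio of 0.16. Probe set 161645_r_at gave 22.3 and 31.0, a log2 ratio of 0.07. The first stands 1.91 and 1.82 away from the other two, which were within 0.09 of each other. A gap of 1.91 was reached by 4.2% of genes with several probe sets. The signs of the other two turned with the scaling: they were −0.00 and −0.04 under quantile and −0.03 and −0.01 under loess scaling.

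**Figure D2:**
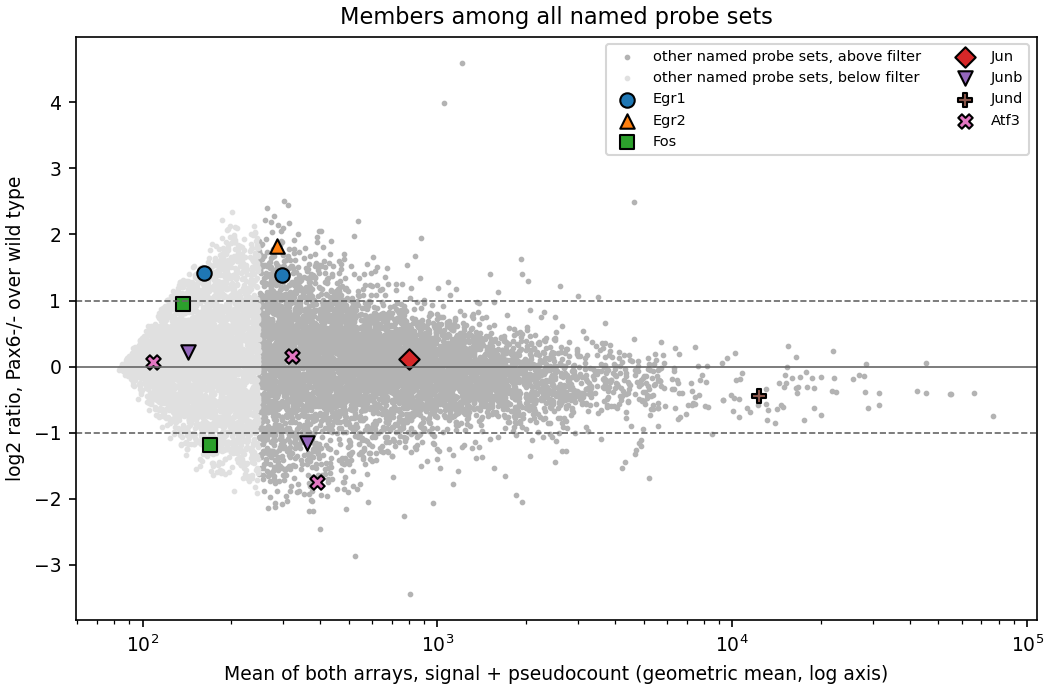
log2 ratio of Pax6-/- over wild type against the geometric mean of both arrays (signal plus pseudocount, log axis) for all named probe sets in grey, with the 12 member probe sets marked by gene. Dashed lines mark 2-fold; the 6 member probe sets past 2-fold all lie in the dim part of the plot, where the grey points are widest, and Jund lies far to the right at −0.45.

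All 6 member probe sets past 2-fold had 1 of their 2 signals below the filter signal. Of the 7 member probe sets above the filter, 2 were past 2-fold upward (Egr1 and Egr2) and 2 past 2-fold downward (Junb and Atf3). The same held for 5.32% and 5.65% of the 6615 named probe sets that passed. Each of these 4 therefore passed only through the array on which it was brighter, and had to differ. In their signal bin, the dimmest of 3, 10.3% of 2984 probe sets passed 2-fold upward and 8.95% downward. Of these 2984, 58.5% were higher by any amount. Below the filter, 60.2% of 4218 named probe sets were higher, with 9.65% past 2-fold upward and 5.33% downward. Loess scaling gave 1.19 and 1.28 for the 2 Egr1 probe sets, 1.63 for Egr2 and 0.83 for Fos 160901_at. It gave −1.33 for Fos 161716_at, −1.32 for Junb 102363_r_at and −1.91 for Atf3 104156_r_at. The 3 member probe sets with both signals above the filter signal, those of Jun, Jund and 104155_f_at of Atf3, had log2 ratios between −0.45 and 0.16.

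Of the 12 probe sets, 6 carry a letter in the name, which Affymetrix used for sets that share probes in a gene family (f), hold fewer probes (i) or relax the design rules (r). Both probe sets of Junb, all 3 of Atf3 and 161802_i_at of Egr1 are of these kinds, whereas both Fos probe sets and the single ones of Egr2, Jun and Jund are plain. Among named probe sets above the filter, 13% of the r sets and 10.9% of the plain sets were at least 2-fold apart in either direction. By sign, 69.7% of the r sets were higher in the mutant, against 48.1% of the plain ones; the r sets of Junb and Atf3 past 2-fold were lower. Over the 4 members with several probe sets, 2 of 6 pairs had the same sign.

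**Figure D3:**
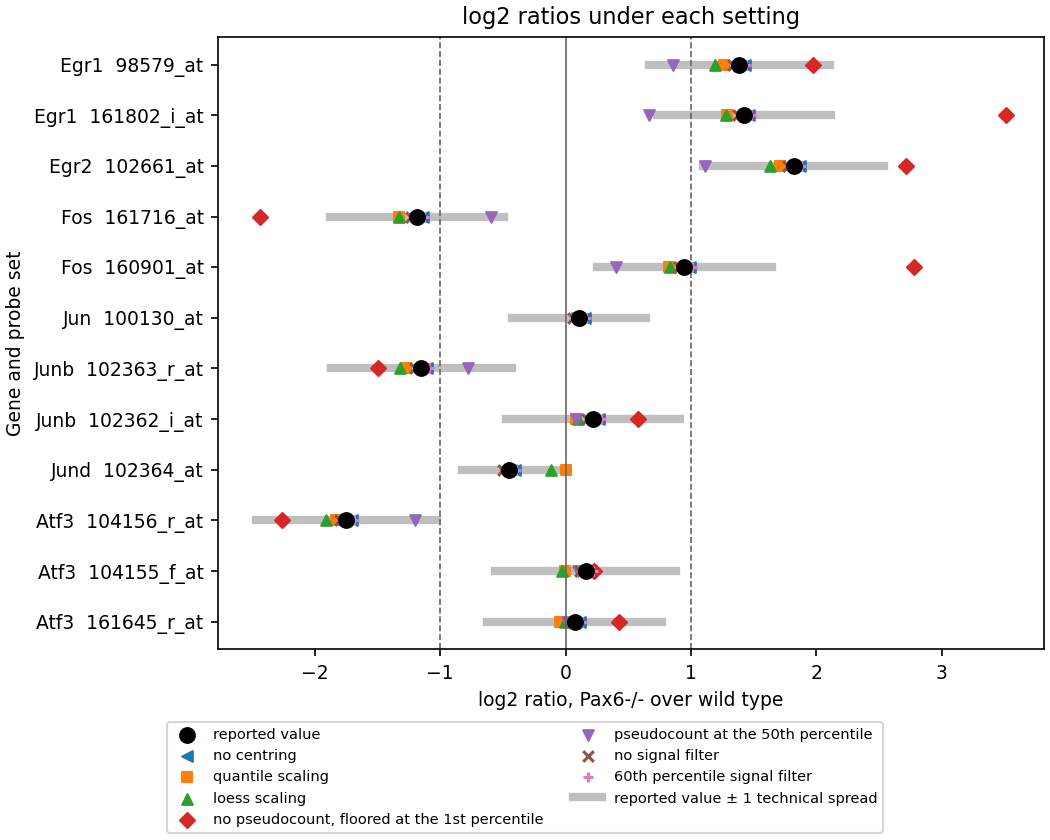
log2 ratio of each member probe set under the reported setting (black) and 7 other settings, with a grey bar of 1 technical spread either side and dashed lines at 2-fold. Egr2 and probe set 104156_r_at of Atf3 stay past 2-fold under all 8 settings, and the widest range, from 0.66 to 3.52, is that of Egr1 probe set 161802_i_at.

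The direction of the 6 probe sets past 2-fold was the same under all 8 settings, while their size depended on the pseudocount. The constant direction is weak evidence, since only quantile or loess scaling could readily have turned a sign. Centring and the filters shift all ratios alike, and the pseudocount and floor keep the order of the 2 signals. Egr2 ranged from 1.11 to 2.72 and probe set 104156_r_at of Atf3 from −2.26 to −1.20. Egr1 98579_at ranged from 0.86 to 1.98, Junb 102363_r_at from −1.50 to −0.78 and Fos 161716_at from −2.44 to −0.59. Each of the last 3 named, and Egr1 161802_i_at, was past 2-fold under 7 of the 8.

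Over 2 arrays a gene's pattern is only its pair of signals, and likeness was measured as the distance between log2 signals plus the pseudocount. The genes nearest to Egr2 were Asf1b (70.7 and 462.4, distance 0.02) and Fmnl1 (70.0 and 479.6, distance 0.04). Nearest to Egr1 98579_at were Trpm7 and Pmm2, and to 161802_i_at Alox15 and Myo1e. Nearest to the lower Fos probe set were Shc3 and Uqcc3, to that of Junb Tob1 and Phka2, and to that of Atf3 Naa40 and Hip1r.

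Related genes were described through lists, each gene by its brightest probe set. Of the other FOS, JUN, ATF, CREB and related zipper genes, 7 of 14 on the array were above the filter, 4 higher and 3 lower, with a median log2 ratio of 0.00, against −0.02 over 5587 genes. Mafk, a small MAF protein, was the only one of the 7 past 2-fold, 2.92-fold lower, from 498.5 to 123.2. Of all genes above the filter, 5.05% passed 2-fold upward and 5.48% downward. Creb1, a mediator of cyclic AMP and calcium signals, had a log2 ratio of 0.97 (138.6 and 364.6) and is named because of that value. Its other probe sets, below the filter, were at 1.02 and −0.19. Also below the filter, and named for their values, were Crem at 1.41, Maff at 1.06 and Atf6 at −1.29. The dimmer Crem probe set was at −0.58.

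Of the other immediate early genes, 15 of 29 were above the filter, 9 higher and 6 lower, with a median of 0.12, and 0 of the 15 were past 2-fold. The largest were Nr4a2, an inducible orphan nuclear receptor gene, at 0.74 (242.6 and 477.1) and Dusp2, a MAP kinase phosphatase gene, at 0.67 (445.4 and 781.9). The second Nr4a2 probe set, below the filter, was at −0.02. Classic induced genes above the filter lay on either side, as did the following, chosen after their values were seen: Dusp1 at −0.53, Ier2 at −0.11, Btg2 at −0.41 and Ier3 at 0.56. Over all 29, filter aside, 18 were higher and 11 lower, with 3 past 2-fold upward and 1 downward. Of all 8251 genes, 6.67% passed 2-fold upward and 5.58% downward. Below the filter the extremes, also named for their values, lay on both sides: Bhlhe40 at 1.62 (17.2 and 230.6), Nr4a1 at 1.44 (58.9 and 311.6) and Homer1 at −1.20 (193.4 and 42.3), with Myc at −0.66 and Sgk1 at −0.50.

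**Figure D4:**
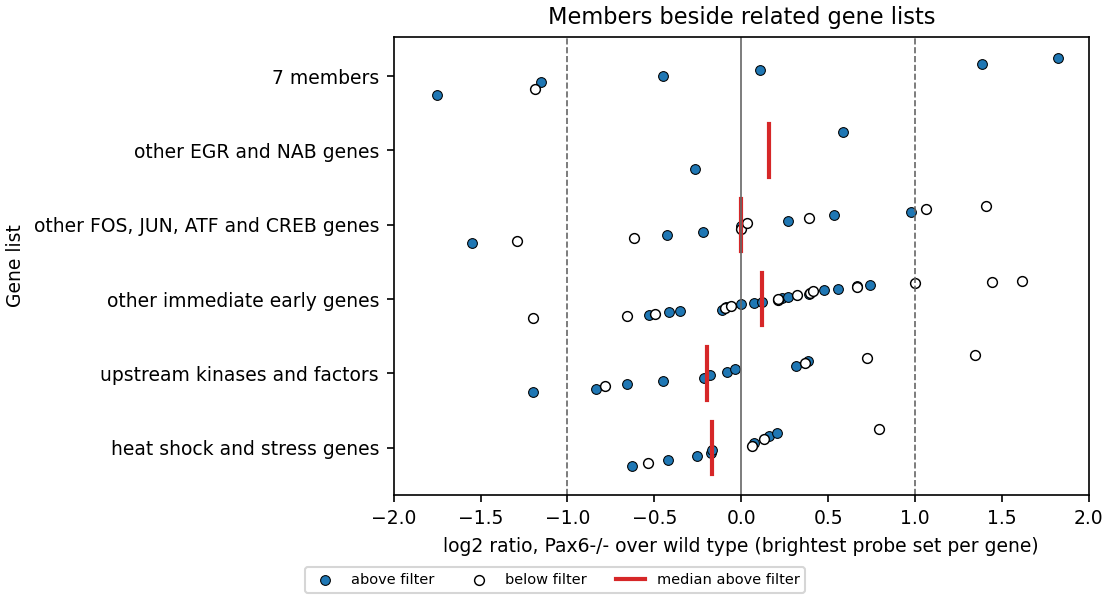
log2 ratio of Pax6-/- over wild type for the brightest probe set of each gene, by list, with filled points above the signal filter, open points below it, red bars at the median of each list other than the members, and dashed lines at 2-fold. The filled member points spread from −1.75 to 1.82. Among other immediate early genes and heat shock genes, 0 of the filled points pass 2-fold. With the open points, 3 of the 29 other immediate early genes pass 2-fold upward and 1 downward.

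Upstream genes encode the kinases and factors that carry signals to the members. Of 10 above the filter, 2 were higher and 8 lower, with a median of −0.20. The share of all genes above the filter that were higher was 48.4%. Over all 14 on the array, 5 were higher and 9 lower, with a median of −0.13. Mapk14, the p38 alpha kinase gene, was 2.29-fold lower, from 884.0 to 353.0. Elk1, an ETS partner of serum response factor, named because of its value, had −0.84. Elk3 and Elk4, also named for their values, were below the filter and lay on opposite sides. Elk3 was 1.72-fold lower (197.6 and 86.0). Elk4 was 2.54-fold higher (69.0 and 313.4), the only 1 of the 14 upstream genes past 2-fold upward. Of 8 heat shock and stress genes above the filter, 3 were higher and 5 lower, with a median of −0.17 that turned to 0.04 under loess and 0.03 under quantile scaling. Hspd1 was at −0.63 and Hsph1 at −0.42, and neither was 2-fold apart.

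Genes marking cell types other than cortical ones, some of which also express immediate early genes, were read on the same arrays. The summed signal of 8 microglial markers was 2221 (wild type) and 3621 (mutant); of the 6 above the filter, 4 were higher and 2 lower, with a median log2 ratio of 0.50, but the median was 0.11 over all 8 and 0.10 with the mean of each gene's probe sets. Csf1r, the microglial growth factor receptor gene, was 2.92-fold higher and C1qb 2.20-fold higher, while Laptm5 was 2.57-fold lower. Their second probe sets were at 0.34 for Csf1r, −0.93 for C1qb and 0.06 for Laptm5 on the log2 scale. The summed signal of 8 vascular markers was 1768 and 2150, with 2 of 4 above the filter higher and a median of 0.39. Cldn5 was 2.09-fold higher, while Eng, the brightest of them in wild type, was 1.94-fold lower (694.7 and 330.9). Flt1 was at 0.78 and Kdr at −0.00, and Eng, Flt1 and Kdr are named for their values. For 10 meningeal and mesenchymal markers the sums were 5469 and 6063, with 4 of 6 above the filter higher. The median was 0.35 for those 6 and 0.08 over all 10, and Twist2 was 2.87-fold higher. Fbln1, named for its value, was at −0.40, with its dimmer probe sets at 0.81, 0.38 and 0.19. Below the filter, Lum was at −1.08 and Twist1 at −0.95 (both named for their values). For 7 erythroid markers the sums were 16730 and 14308, with 2 of 5 higher, a median of −0.05, Hbb-y at −0.63 and Klf1 at 0.56. The summed microglial, vascular and meningeal signals were higher in the mutant, as those of Egr1 and Egr2 were. Each of these gains was a net of opposite changes. Csf1r gave 911.7 of the microglial 1400.1. Cldn5 gained 297.1 against a vascular total of 382.8, beside a rise of Flt1 (239.4 and 487.8) and the fall of Eng. Col1a2 gained 607.5 against a meningeal total of 594.0, beside a rise of Twist2 (213.4 and 791.2) and a fall of Fbln1 (2497 and 1931). No marker signal was 0, the lowest being 3.78 (Foxc1). Their part in the Egr1 and Egr2 signals was not tested.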

How the data were processed

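Each deposited value is an unlogged intensity, the MAS5 signal of 1 probe set on 1 array. The submitters' processing notes name MAS5 alone; version, scaling target and detection calls were not given in the sources used here. GEO's platform annotation named 10855 of 12488 probe sets by 1 symbol. Signals plus 81.5 (the 25th percentile over both arrays) were put on the log2 scale. Log2 ratios of mutant over wild type were then reduced by their median, 0.05, over probe sets passing the signal filter: a mean log2 value no lower than the 40th percentile, equal to a signal of 165.8. For the technical spread, the 2 brightest probe sets of each gene were compared and the SD of their difference was divided by the square root of 2, in 3 equal bins above the filter (894 genes) and once below it (488 genes). Differences counted from 2-fold. Precision is limited by the number of arrays.

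Genes named are the members, the list genes past 2-fold above the filter (or else the 2 largest), and the 2 genes nearest to each member probe set past 2-fold. Further genes, marked as chosen for their values, are Fosb, Fosl1, Fosl2, Creb1, Crem, Maff, Atf6, Elk1, Elk3, Elk4, Dusp1, Ier2, Ier3 and Btg2. Others so marked are Nr4a1, Bhlhe40, Homer1, Myc, Sgk1, Lum, Twist1, Eng, Flt1, Kdr and Fbln1. Csf1r, Cldn5 and Col1a2 are named for the largest gain of their lists, and Foxc1 as the lowest marker signal. Members and lists were chosen with earlier results of these data known. The settings tried left out centring, scaled by quantiles or loess (fraction 0.4, 3 iterations), replaced the pseudocount by a floor at the 1st percentile or by the 50th percentile, and changed the filter (none, 60th percentile), the fold (1.5, 3) or the probe sets used (plain ones, the mean per gene). The filter settings for single ratios were added after seeing the data. The log2 ratios (with the floor in place of the pseudocount), their centring and the technical spread were tested on simulated data. The other steps were not. Software was matplotlib 3.10.9, statsmodels 0.14.6, scipy 1.17.1, pandas 2.3.3 and numpy 2.4.6 under Python 3.11.15.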

Additional observations from a re-analysis of the deposited data

How the results depend on the processing

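No centring and both other filters shift every ratio by the same small amount, so their 36 recomputed member ratios could hardly move; of the other 48, 42 moved by less than 1 technical spread. Without a pseudocount the log2 ratio was 3.52 for Egr1 161802_i_at, 2.72 for Egr2, −2.44 for Fos 161716_at and 2.78 for Fos 160901_at. With the 50th-percentile pseudocount Egr1 161802_i_at was at 0.66, and with quantile scaling Jund was at 0.00034. The count of member probe sets at least 2-fold higher was 1 with the 50th-percentile pseudocount and at 3-fold, and 0 with the 60th-percentile filter. The count at least 2-fold lower was also 1 with that pseudocount and at 3-fold, and 0 with that filter and with plain probe sets alone. Some list medians depended on the setting: that of microglia went from 0.50 to 0.06 with no filter and 0.10 with the mean of each gene's probe sets, that of meninges from 0.35 to 0.03 with no filter, and that of heat shock genes from −0.17 to 0.04 with loess scaling. The technical spread of 0.56 stayed within 1.5 times its value under all 5 alternatives. Leaving out a replicate was not possible with 1 array per genotype. No paired analysis was possible because each genotype has 1 array and the labels carry no replicate numbers. Dim signals, without detection calls, limit the ratios of Egr1, Egr2 and Fos most.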
